A study of Mus musculus with 12 samples.

Results

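Lungs of mice that lack integrin β3 were compared with lungs of wild-type mice across the genes outside the antibody and T cell receptor segments. The members were the 21874 genes listed in lung that are not immunoglobulin or T cell receptor alpha and beta segments, immunoglobulin constant genes or Y-linked genes, out of 22479 genes listed. Of these, 3911 were at 0 in all 6 lung libraries, and 15580 passed a filter of 0.1 FPKM (fragments scaled by transcript length and library total) in 3 or more libraries and were tested. The 3 β3-/- lungs came from mice on the C57BL/6 background that lack *Itgb3* in every cell and were a gift to the laboratory. The 3 WT lungs came from purchased C57BL/6 mice. Mice of both genotypes were 8 to 10 weeks old, no treatment is given for either, and the lung and spleen of each mouse gave a library each, 12 in the series. The sources used here do not state that the genotypes were littermates, so the origin of the mice cannot be told apart from genotype. Sex cannot be told apart from genotype either, since the 4 Y-linked genes that reached 1 FPKM were at 0 in every β3-/- lung and at 3.69 to 30.1 FPKM in the WT lungs.

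Integrin β3 pairs with αIIb on platelets, where it binds fibrinogen and ties platelets to each other, and with αv on endothelium, macrophages and other cells, where it binds vitronectin, osteopontin and other matrix proteins. Integrins also carry signals from the matrix into the cell, and some αv integrins release TGF-β from its latent complex. The lung holds resident T cells, NK cells, B cells and macrophages, and megakaryocytes that shed platelets into its vessels. In RNA of whole tissue, fewer cells of a type and less RNA per cell cannot be told apart.

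*Itgb3* (GRCm39, chromosome 11, 104498826 to 104561302) had 1.94, 1.34 and 1.29 FPKM in β3-/- lungs 1, 2 and 3, against 3.68, 4.39 and 4.14 FPKM in WT lungs 1, 2 and 3. All 3 β3-/- lungs were below all 3 WT lungs (log2 fold change -1.38, SE 0.20, adjusted p = 0.064), so the targeted gene itself missed the adjusted threshold in limma. The transcript was still measured in β3-/- lungs. FPKM summed to 470647 to 489157 in β3-/- libraries and to 455850 to 465356 in WT libraries, and the depth in reads is unknown. A second split of the libraries crossed the genotypes. The ubiquitin gene *Ubb*, chosen after its values were seen, had 678 FPKM in β3-/- 3 and 570 and 688 FPKM in WT 1 and WT 2, but 4.52 to 4.97 FPKM in β3-/- 1, β3-/- 2 and WT 3, and these are called the high and low *Ubb* libraries here. A comparison within the high libraries rests on β3-/- 3 alone for β3-/-, and within the low ones on WT 3 alone for WT. The list of 14 ubiquitin and tubulin genes was likewise chosen with earlier results of these data known. With *Ubb* included, these genes summed to 2551, 2253 and 2490 FPKM in β3-/- 3, WT 1 and WT 2, and to 225 to 253 FPKM in the others. Their median log2 fold change by genotype was -0.94, with 13 below 0 and 0 at an unadjusted p under 0.05. Alveolar type 2 genes, which mark lung tissue, summed to 19590 to 22850 FPKM in β3-/- lungs and to 18080 to 29660 FPKM in WT lungs.

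Among members, 7 genes rose in β3-/- lungs at an adjusted p below 0.05 and an absolute log2 fold change above 1, or 0.0449% of those tested, and 0 fell (0.0%). Over all 15869 genes tested, left-out genes included, 0.284% rose and 0.0315% fell. Beside the limma count of 0, 1213 members were lower with an unadjusted p under 0.05 (7.79%) and 624 were higher (4.01%), where all genes gave 7.7% and 4.95%. Adding the fold threshold left 104 higher (0.668%) and 71 lower (0.456%), where all genes gave 1.63% and 0.504%. All β3-/- lungs were above all WT lungs in 6.02% of members and below them in 12.8%, where all genes gave 6.86% and 12.6%. The median log2 fold change of members was -0.03. P-values were adjusted over all genes tested, and when the members were fitted and adjusted alone 0 of them passed in the higher direction.

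*Jchain* (chromosome 5, 88667668 to 88675750), which encodes the chain that joins IgA and IgM into polymers, had 218, 182 and 234 FPKM in β3-/- lungs 1, 2 and 3, against 3.92, 4.22 and 14.2 FPKM in WT lungs 1, 2 and 3. WT 3 was the highest of its group and still far below the lowest β3-/- lung (log2 fold change 5.07, SE 0.47, adjusted p = 0.011). *Tigit* (chromosome 16, 43469100 to 43484509), an inhibitory receptor found on T and NK cells, had 1.89, 2.49 and 2.16 FPKM in β3-/- lungs and 0.331, 0.511 and 0.571 FPKM in WT lungs (log2 fold change 2.01, SE 0.25, adjusted p = 0.035). *Gzmb* (chromosome 14, 56496295 to 56499717), the granzyme that cytotoxic lymphocytes deliver into target cells, had 12.7, 12 and 11.4 FPKM in β3-/- lungs and 2.71, 5.0 and 3.52 FPKM in WT lungs (log2 fold change 1.70, SE 0.21, adjusted p = 0.038). For both genes the β3-/- lungs lay clear of the WT lungs, with the lowest β3-/- lung above the highest WT lung.

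*Alas2* (chromosome X, 149330371 to 149353634), the enzyme that starts heme synthesis in red cell precursors, had 61.6, 43 and 43.4 FPKM in β3-/- lungs and 17.4, 21.1 and 15.9 FPKM in WT lungs (log2 fold change 1.43, SE 0.17, adjusted p = 0.032). *Ppbp* (chromosome 5, 90916371 to 90917930), a chemokine stored in platelet granules, had 42.4, 29.5 and 36.9 FPKM in β3-/- lungs and 14.6, 15.6 and 18.1 FPKM in WT lungs (log2 fold change 1.16, SE 0.15, adjusted p = 0.041). *Vps37b* (chromosome 5, 124142013 to 124170429), a subunit of the ESCRT-I complex that sorts membrane proteins to lysosomes, had 29.5, 20.6 and 23 FPKM in β3-/- lungs and 11.2, 11.7 and 11.4 FPKM in WT lungs (log2 fold change 1.07, SE 0.13, adjusted p = 0.038). The lowest β3-/- lung was above the highest WT lung for each of these genes, and β3-/- 1 was the highest library. Of 29 ESCRT genes *Vps37b* alone was higher with an unadjusted p under 0.05 (3.45%), and 3 were lower (10.3%), beside 4.01% and 7.79% of all members. The lower count was 0 without β3-/- 1 or WT 2 and 1 without β3-/- 3, WT 1 or WT 3. The last call was MSTRG.4307.1, a transcript model with no gene name, at 3.25, 4.13 and 4.39 FPKM in β3-/- lungs and 0.964, 0.845 and 1.07 FPKM in WT lungs (log2 fold change 1.92, SE 0.19, adjusted p = 0.012).

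Without a fold threshold 9 members rose (0.0578%) and 0 fell, where over all genes 0.296% rose and 0.0315% fell. The added genes were *Zfp36* and *Alox12*. *Zfp36* (chromosome 7, 28076209 to 28079710), which encodes tristetraprolin, a protein that speeds the decay of cytokine mRNAs, had 133, 121 and 133 FPKM in β3-/- lungs and 68.9, 80.2 and 74.2 FPKM in WT lungs (log2 fold change 0.79, SE 0.08, adjusted p = 0.019). *Alox12* (chromosome 11, 70132283 to 70146221), the platelet 12-lipoxygenase, had 7.12, 6.01 and 7.09 FPKM in β3-/- lungs and 3.06, 3.6 and 3.36 FPKM in WT lungs (log2 fold change 0.99, SE 0.13, adjusted p = 0.041). The calls depended on the setting. Of 20 alternatives *Jchain* passed in 15, *Zfp36* in 12, *Vps37b* in 10, *Alas2* and *Gzmb* in 9, *Tigit* and *Ppbp* in 8 and *Alox12* in 6, while *Itgb3* passed in 4. With WT 1 left out 0 members were called higher, and with β3-/- 1, β3-/- 2 or β3-/- 3 left out 2, 3 and 2 were. With the *Ubb* group as a term 4 were called, and *Alas2*, *Alox12*, *Gzmb*, *Ppbp*, *Tigit* and *Vps37b* no longer passed.

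**Figure D1:**
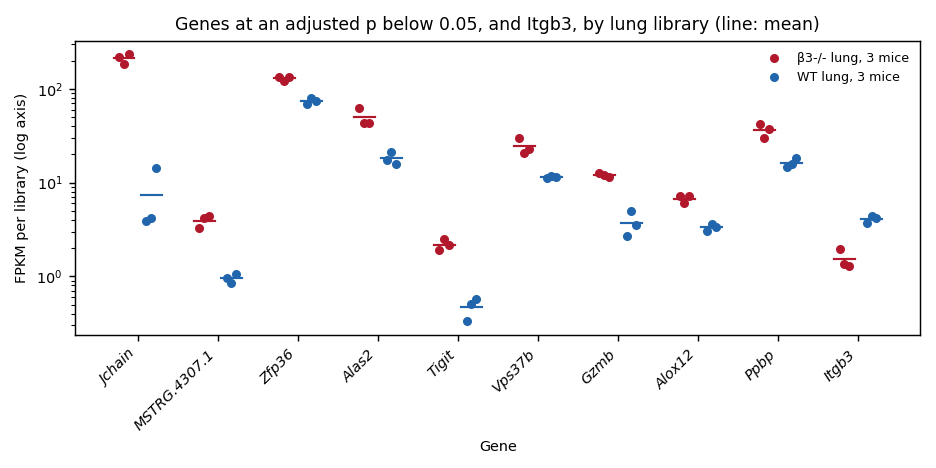
FPKM on a log axis in each lung library for the 9 members at an adjusted p below 0.05, and for Itgb3. Points are single mice, red for β3-/- and blue for WT, and lines are means of 3. The genotypes are apart for each gene, with Jchain at 182 to 234 FPKM in β3-/- lungs and 3.92 to 14.2 FPKM in WT lungs.

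The higher members with the next smallest p, at adjusted p of 0.066 to 0.079, did not pass. *Edn1*, the vasoconstrictor endothelin-1, had 49.9, 41 and 47.5 FPKM in β3-/- lungs and 25.8, 17.6 and 23.1 FPKM in WT lungs (log2 fold change 1.07, SE 0.15). *Tnfaip3*, which encodes A20, an inhibitor that NF-κB induces against itself, had 18.6, 16.5 and 19.2 FPKM in β3-/- lungs and 8.46, 9.52 and 11.5 FPKM in WT lungs (log2 fold change 0.89, SE 0.13). *Siglech*, a marker of plasmacytoid dendritic cells, had 4.24, 4.9 and 4.44 FPKM in β3-/- lungs and 2.22, 2.33 and 1.7 FPKM in WT lungs (log2 fold change 1.10, SE 0.16). The rule that named these genes took only genes whose genotypes did not overlap, so the lack of overlap is no added result. The same rule named *Vnn1*, a pantetheinase (0.72, SE 0.11), *Adamtsl2*, a secreted matrix protein (0.70, SE 0.10), and *Lgals3bp*, a secreted galectin ligand (0.57, SE 0.09).

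T cell genes were mostly higher. Of 22, all tested, 16 were higher with an unadjusted p under 0.05 and 0 lower, or 72.7% beside 4.01% of all members, and their median log2 fold change was 0.51. *Cd3d* and *Cd3g* encode invariant chains of the T cell receptor complex. *Cd3d* had 6.34, 5.68 and 6.27 FPKM in β3-/- lungs and 3.82, 4.53 and 4.3 FPKM in WT lungs (log2 fold change 0.52, SE 0.12), and *Cd3g* had 19.2, 14.9 and 17 FPKM in β3-/- lungs and 9.95, 13.2 and 9.16 FPKM in WT lungs (log2 fold change 0.67, SE 0.16). *Zap70*, the kinase that docks on these chains, had 5.64, 5.63 and 4.61 FPKM in β3-/- lungs and 3.59, 3.79 and 3.09 FPKM in WT lungs (log2 fold change 0.59, SE 0.14). *Icos*, a costimulatory receptor, had 2.51, 2.12 and 2.74 FPKM in β3-/- lungs and 1.51, 1.24 and 1.45 FPKM in WT lungs (log2 fold change 0.77, SE 0.18). None of the list passed after adjustment over all genes. The summed level was 295 to 331 FPKM in β3-/- lungs and 209 to 290 FPKM in WT lungs, with WT 2 the highest WT lung. The count of higher genes was 6 without WT 1, 7 without WT 3, 8 without β3-/- 1 and 20 without WT 2, each with 0 lower.

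Receptors that restrain or costimulate T cells had 9 of 20 higher and 1 lower with an unadjusted p under 0.05, with a median of 0.49. Beside *Tigit*, *Ctla4*, which competes with CD28 for B7 ligands, had 7.21, 3.6 and 4.4 FPKM in β3-/- lungs and 1.47, 1.69 and 1.52 FPKM in WT lungs (log2 fold change 1.58, SE 0.26, adjusted p = 0.095). *Lag3*, an inhibitory receptor that binds MHC class II, had 1.49, 1.8 and 1.24 FPKM in β3-/- lungs and 0.745, 0.666 and 0.741 FPKM in WT lungs (log2 fold change 0.97, SE 0.21), and *Cd96*, which shares a ligand with TIGIT, had 3.61, 3.4 and 3.78 FPKM in β3-/- lungs and 2.26, 2.5 and 2.02 FPKM in WT lungs (log2 fold change 0.65, SE 0.14). In each of them all β3-/- lungs were above all WT lungs, with β3-/- 1 the highest for *Ctla4*. The count was 5 without β3-/- 1 or without WT 1, and 6 after rescaling to TPM. Of 15 genes of regulatory T cells 2 were higher (13.3%) and 1 lower (6.67%), the latter near the share over all members.

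Genes of cytotoxic granules and effector molecules had 7 of 19 higher (36.8%) and 1 lower (5.26%) with an unadjusted p under 0.05, with a median of 0.51. The shares over all members were 4.01% and 7.79%, and the higher count ranged over 5 to 10 as each library was left out. *Gzma*, another granzyme, had 52.3, 69.6 and 58.7 FPKM in β3-/- lungs and 25.5, 36 and 25.8 FPKM in WT lungs (log2 fold change 1.05, SE 0.17, adjusted p = 0.085). *Ccl5*, a chemokine made by effector T cells and NK cells, had 94.5, 114 and 111 FPKM in β3-/- lungs and 47.6, 70.7 and 55.1 FPKM in WT lungs (log2 fold change 0.89, SE 0.15). *Prf1*, the pore former perforin, had 8.43, 9.18 and 7.1 FPKM in β3-/- lungs and 3.86, 5.69 and 3.73 FPKM in WT lungs (log2 fold change 0.90, SE 0.19). WT 2 was the highest WT lung for each, and still below the β3-/- lungs. Among 19 NK cell genes 4 were higher (21.1%) and 1 lower (5.26%). The higher count was 8 without WT 2, and 3 without β3-/- 2 or WT 1 and after rescaling to TPM. *Klrg1*, a receptor of mature NK cells and effector T cells, had 2.94, 4.19 and 3.35 FPKM in β3-/- lungs and 1.07, 0.984 and 1.61 FPKM in WT lungs (log2 fold change 1.46, SE 0.24). Some of these lists share members, so their counts are not independent.

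**Figure D2:**
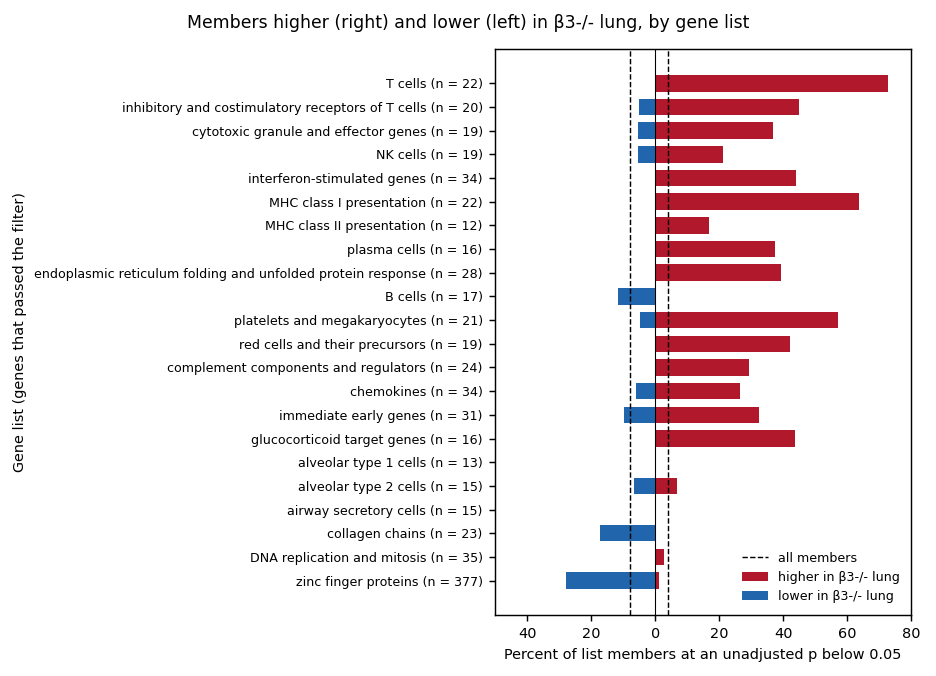
Percent of the tested genes of each list that were higher (right, red) or lower (left, blue) in β3-/- lungs at an unadjusted p below 0.05. Dashed lines are the shares over all members, 4.01% higher and 7.79% lower. T cell genes (72.7%) and MHC class I genes (63.6%) have long bars to the right, and zinc finger genes (27.9%) have a long bar to the left.

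Interferon-stimulated genes, which cells switch on after interferon binds its receptors, were also mostly higher. Of 34, all tested, 15 were higher (44.1%) with an unadjusted p under 0.05 and 0 lower, beside 4.01% and 7.79% of all members. A log2 fold change above 0 was found in 31, and the median was 0.35. Many such genes hold a short element, the interferon-stimulated response element, in their promoters. The half-site GAAA, followed by any 2 bases and a second GAAA, was searched on both strands in RefSeq promoter windows of build GRCm38.p6, from 250 bases before to 50 bases after a gene's start. It was found in 15 of the 24 interferon-stimulated genes that had a window (62.5%), beside 3.99% of the 27025 genes of that table. Among those higher in β3-/- lungs at an unadjusted p under 0.05, 7 of 10 held it (70.0%). A match is a description and not a measured binding site. The windows of 3 genes, chosen after their values were seen, are shown because they hold the element and belong to genes higher in β3-/- lungs. They are written 5′ to 3′ on the strand of the gene, and capitals mark the matches, on either strand.
Rsad2, chr12:26456403-26456702, minus strand: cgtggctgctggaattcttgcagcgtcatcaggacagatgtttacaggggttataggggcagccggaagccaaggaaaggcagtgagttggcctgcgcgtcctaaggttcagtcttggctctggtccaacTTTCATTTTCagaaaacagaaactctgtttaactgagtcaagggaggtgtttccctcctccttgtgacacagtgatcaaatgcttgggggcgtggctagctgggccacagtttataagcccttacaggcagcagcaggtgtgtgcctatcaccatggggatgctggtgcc
Oas1a, chr5:120907476-120907775, minus strand: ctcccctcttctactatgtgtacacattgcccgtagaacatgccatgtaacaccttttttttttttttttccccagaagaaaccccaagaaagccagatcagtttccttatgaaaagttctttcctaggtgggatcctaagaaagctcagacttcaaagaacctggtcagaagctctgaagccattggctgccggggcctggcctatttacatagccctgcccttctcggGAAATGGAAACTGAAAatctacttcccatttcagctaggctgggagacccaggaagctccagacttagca
Isg15, chr4:156200769-156201068, minus strand: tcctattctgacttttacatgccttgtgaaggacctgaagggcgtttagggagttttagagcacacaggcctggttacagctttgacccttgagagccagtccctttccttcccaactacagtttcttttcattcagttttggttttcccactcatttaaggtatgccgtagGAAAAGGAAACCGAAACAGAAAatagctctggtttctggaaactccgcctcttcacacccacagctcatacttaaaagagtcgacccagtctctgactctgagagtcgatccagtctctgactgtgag

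*Rsad2*, whose window holds 1 match, encodes viperin, an antiviral enzyme, and had 2.0, 2.87 and 1.96 FPKM in β3-/- lungs and 0.96, 0.732 and 0.831 FPKM in WT lungs (log2 fold change 1.32, SE 0.22, adjusted p = 0.097). *Oas1a*, with 2 overlapping matches near the start site, makes the oligoadenylates that activate RNase L and had 6.58, 7.62 and 7.12 FPKM in β3-/- lungs and 4.26, 4.78 and 4.0 FPKM in WT lungs (log2 fold change 0.70, SE 0.12). *Isg15*, with 3 overlapping matches, is a ubiquitin-like protein attached to other proteins after interferon and had 18.8, 15.6 and 18.2 FPKM in β3-/- lungs and 12.6, 12.9 and 8.86 FPKM in WT lungs (log2 fold change 0.63, SE 0.16). Outside those windows, *Ifi27l2a*, an interferon-induced gene, had 88.5, 84 and 89.4 FPKM in β3-/- lungs and 46.8, 46 and 28.7 FPKM in WT lungs (log2 fold change 1.14, SE 0.19). *Oasl2*, a relative of the OAS enzymes whose own window holds no match, had 21.8, 20.4 and 21.6 FPKM in β3-/- lungs and 16, 16.1 and 15.1 FPKM in WT lungs (log2 fold change 0.43, SE 0.07). In each of these 5 genes the genotypes did not overlap. The count of 15 ranged over 11 to 18 as each library was left out, with 0 lower in each case.

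MHC class I and the machinery that loads it had 14 of 22 genes higher (63.6%) with an unadjusted p under 0.05 and 0 lower. The shares over all members were 4.01% and 7.79%. All 22 had a log2 fold change above 0, with a median of 0.36. *Nlrc5*, the transactivator of MHC class I genes, had 4.22, 4.78 and 5.61 FPKM in β3-/- lungs and 3.0, 3.11 and 2.9 FPKM in WT lungs (log2 fold change 0.67, SE 0.14). *Psmb9*, a subunit of the immunoproteasome that cuts peptides for presentation, had 39.9, 43.3 and 36 FPKM in β3-/- lungs and 30.3, 27.6 and 30.8 FPKM in WT lungs (log2 fold change 0.42, SE 0.09). *Calr*, the chaperone calreticulin, had 188, 194 and 203 FPKM in β3-/- lungs and 128, 132 and 147 FPKM in WT lungs (log2 fold change 0.52, SE 0.08, adjusted p = 0.085), and *Pdia3*, its partner in the loading complex, had 183, 185 and 181 FPKM in β3-/- lungs and 139, 143 and 153 FPKM in WT lungs (log2 fold change 0.34, SE 0.07). None of the list passed after adjustment, and the summed level was 5416 to 6207 FPKM in β3-/- lungs and 3925 to 4790 FPKM in WT lungs. The count was 7 without WT 1, 8 without β3-/- 2, 9 without WT 3 and 18 without WT 2. Of 12 MHC class II genes 2 were higher (16.7%) and 0 lower. The higher count was 5 without WT 2 and 1 without β3-/- 2, WT 1 or WT 3. Among the higher genes was *H2-DMb1*, which helps load class II peptides, with 56.5, 60.2 and 51.8 FPKM in β3-/- lungs and 37.5, 44.1 and 38.9 FPKM in WT lungs (log2 fold change 0.48, SE 0.09).

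**Figure D3:**
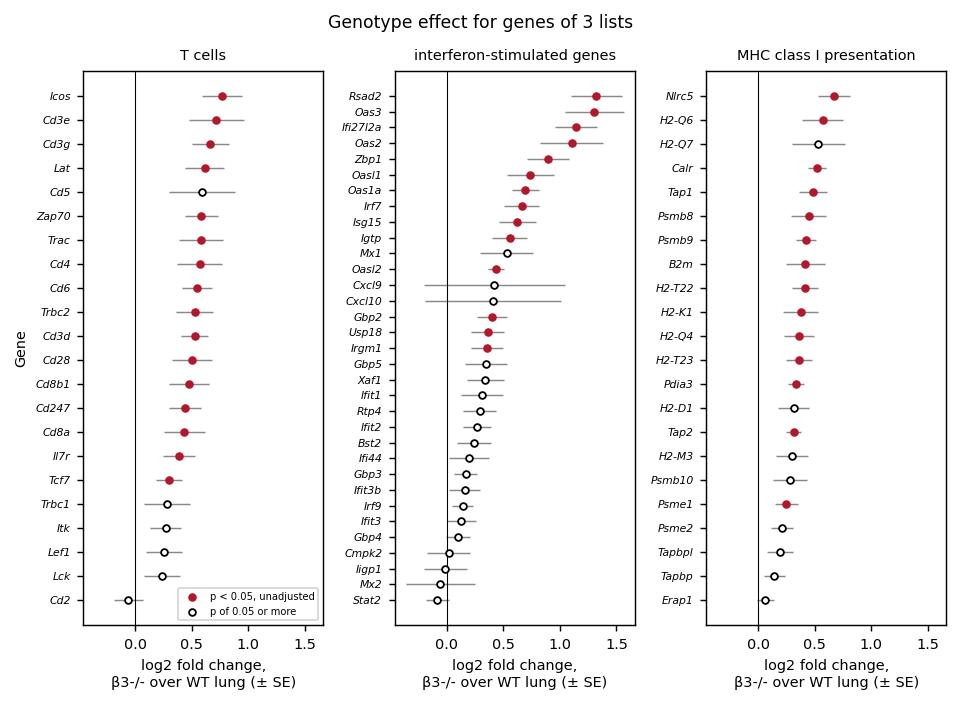
Log2 fold change of β3-/- over WT lung, with its SE, for the tested genes of the T cell, interferon-stimulated and MHC class I lists, less 1 interferon-stimulated gene that is not drawn. Filled points have an unadjusted p below 0.05, and a line marks no difference. All 22 MHC class I genes are above 0, as are 21 of 22 T cell genes and 31 of the 34 interferon-stimulated genes, the undrawn one included.

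Genes of plasma cells, which secrete antibody, had 6 of 16 higher (37.5%) and 0 lower with an unadjusted p under 0.05, beside 4.01% and 7.79% of all members. Their median was 0.18, and *Jchain* alone passed after adjustment. *Mzb1*, a chaperone of antibody assembly, had 15.7, 16.4 and 11.8 FPKM in β3-/- lungs and 8.49, 6.91 and 6.76 FPKM in WT lungs (log2 fold change 0.97, SE 0.16, adjusted p = 0.092). *Tnfrsf17*, which encodes the survival receptor BCMA, had 1.23, 1.75 and 0.848 FPKM in β3-/- lungs and 0.195, 0 and 0.293 FPKM in WT lungs (log2 fold change 2.55, SE 0.56). The plasma cell list summed to 619 to 648 FPKM in β3-/- lungs and to 358 to 391 FPKM in WT lungs, and without *Jchain* to 386 to 437 FPKM in β3-/- lungs and 354 to 377 FPKM in WT lungs. Of 28 genes of endoplasmic reticulum folding and the unfolded protein response, which secretory cells rely on, 11 were higher (39.3%) and 0 lower, with a median of 0.12. *Hspa5*, the chaperone BiP, had 157, 146 and 154 FPKM in β3-/- lungs and 110.0, 116 and 122 FPKM in WT lungs (log2 fold change 0.39, SE 0.07). *Pdia4* (0.36, SE 0.06) and *Pdia6* (0.35, SE 0.07), disulfide isomerases, went the same way. The folding list shares *Calr* and *Pdia3* with the MHC class I list and genes such as *Xbp1* with the plasma cell list, so these counts are not independent. B cell genes had 0 of 17 higher and 2 lower (11.8%), with a median of -0.24. The lower count was 4 without WT 3, 3 without β3-/- 1 or β3-/- 2 and 1 without β3-/- 3, WT 1 or WT 2, and the median ranged over -0.38 to -0.10. *Cxcr5*, the receptor that leads B cells into follicles, had 8.19, 8.3 and 5.86 FPKM in β3-/- lungs and 10.3, 11.6 and 9.9 FPKM in WT lungs (log2 fold change -0.52, SE 0.16). Within the high *Ubb* libraries, with β3-/- 3 as the only β3-/- lung, the median of the B cell list was -0.59. Within the low ones, with WT 3 as the only WT lung, it was 0.07.

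Platelet and megakaryocyte genes had 12 of 21 higher (57.1%) with an unadjusted p under 0.05 and 1, *Itgb3* itself, lower (4.76%), with a median of 0.76. The shares over all members were 4.01% and 7.79%. *Itga2b*, the αIIb chain that pairs with β3 on platelets, had 6.61, 5.93 and 7.96 FPKM in β3-/- lungs and 3.26, 4.48 and 4.25 FPKM in WT lungs (log2 fold change 0.76, SE 0.17, adjusted p = 0.17). Its log2 fold change and that of *Itgb3* had opposite signs. *Ppbp* and *Alox12*, given above, were the members of the list that passed. The count was 7 without β3-/- 3 and 8 without WT 1 or WT 2. The median was 1.12 within the high *Ubb* libraries, whose only β3-/- lung is β3-/- 3, and 0.40 within the low ones.

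Of 24 genes of red cells and their precursors 19 passed the filter, with a median of 0.67. Of these, 8 were higher (42.1%) with an unadjusted p under 0.05 and 0 lower, beside 4.01% and 7.79% of all members. *Hbb-bt*, an adult β globin, had 2357, 1446 and 1568 FPKM in β3-/- lungs and 778, 973 and 620.0 FPKM in WT lungs (log2 fold change 1.17, SE 0.25). *Hba-a2*, an adult α globin, had 3250.0, 2204 and 2439 FPKM in β3-/- lungs and 1227, 1510.0 and 984 FPKM in WT lungs (log2 fold change 1.09, SE 0.24). β3-/- 1 was the highest library for these genes and for *Alas2*, and the genotypes did not overlap. Globin genes have near-identical copies, so how reads were shared among them is uncertain. The median was 0.83 within the high *Ubb* libraries and 0.13 within the low ones. Of 13 genes of heme synthesis *Alas2* was higher (7.69%) and 1 lower (7.69%). The promoter of *Alas2* is shown because it is the red cell gene that passed after adjustment. Capitals mark AGATAA on either strand, the letters of an element that GATA factors of red cell precursors bind. These letters were in 12.7% of the genes of the promoter table and in 4 of the 13 red cell genes with a window (30.8%), again as a description, in build GRCm38.p6.
Alas2, chrX:150547167-150547466, plus strand: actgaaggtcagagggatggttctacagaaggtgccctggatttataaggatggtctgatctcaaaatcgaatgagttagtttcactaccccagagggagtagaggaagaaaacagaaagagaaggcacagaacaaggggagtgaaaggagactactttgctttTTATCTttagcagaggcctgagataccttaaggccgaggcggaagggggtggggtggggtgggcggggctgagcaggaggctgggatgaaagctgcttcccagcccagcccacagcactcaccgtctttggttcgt

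**Figure D4:**
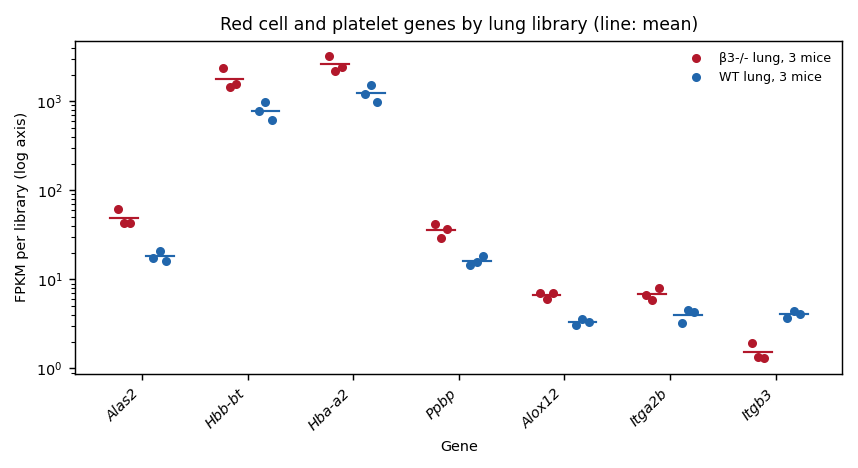
FPKM on a log axis in each lung library for 3 red cell genes (Alas2, Hbb-bt, Hba-a2) and 4 platelet genes (Ppbp, Alox12, Itga2b, Itgb3). Points are single mice, red for β3-/- and blue for WT, and lines are means of 3. β3-/- 1 has the highest value of each red cell gene, and Itgb3 is the one gene of the 7 that is lower in β3-/- lungs.

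Other immune lists differed in part. Of 24 complement genes 7 were higher (29.2%) and 0 lower with an unadjusted p under 0.05, with a median of 0.08. The shares over all members were 4.01% and 7.79%. *C3*, the central component, had 101, 109.5 and 147 FPKM in β3-/- lungs and 78.5, 54.8 and 90.7 FPKM in WT lungs (log2 fold change 0.68, SE 0.22), and *C6*, a part of the membrane attack complex, had 11.7, 12.1 and 12.9 FPKM in β3-/- lungs and 6.71, 5.73 and 8.78 FPKM in WT lungs (log2 fold change 0.80, SE 0.16). The count was 2 without WT 2 and 4 without β3-/- 3 or WT 1. The median of the complement list was 0.34 within the high *Ubb* libraries, whose only β3-/- lung is β3-/- 3, and -0.02 within the low ones. Of its genes, *C2*, *C3* and *Cfb* had log2 fold changes of 1.34, 1.17 and 1.40 within the high libraries and 0.16, 0.21 and 0.22 within the low ones. Of 34 chemokine genes 9 were higher (26.5%) and 2 lower (5.88%), and 5 were higher without β3-/- 3. *Cxcl12*, which holds leukocytes and progenitors through CXCR4, had 65.9, 72 and 82.9 FPKM in β3-/- lungs and 60.7, 49.1 and 58 FPKM in WT lungs (log2 fold change 0.39, SE 0.12), and *Ccl9* had 10.9, 10.5 and 13.8 FPKM in β3-/- lungs and 7.05, 7.32 and 7.98 FPKM in WT lungs (log2 fold change 0.64, SE 0.13).

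Immediate early genes, which respond within minutes to stimulation, had 10 of 31 higher (32.3%) and 3 lower (9.68%) with an unadjusted p under 0.05. The shares over all members were 4.01% and 7.79%. Beside *Zfp36*, *Junb*, an AP-1 subunit, had 92, 82.6 and 100.5 FPKM in β3-/- lungs and 54.5, 68.9 and 44 FPKM in WT lungs (log2 fold change 0.74, SE 0.17), and *Nr4a3*, an orphan nuclear receptor, had 3.51, 4.06 and 4.13 FPKM in β3-/- lungs and 1.19, 1.34 and 2.29 FPKM in WT lungs (log2 fold change 1.28, SE 0.25). Without WT 3, 6 of that list were lower, and the count was 1 without β3-/- 2 and 0 without β3-/- 3, WT 1 or WT 2. Of 23 NF-κB subunits and feedback inhibitors 2 were higher (8.7%), *Tnfaip3* and *Nfkbia*, and 1 lower (4.35%). *Nfkbia*, the inhibitor IκBα, had 192, 178 and 171 FPKM in β3-/- lungs and 90.4, 105 and 140.2 FPKM in WT lungs (log2 fold change 0.71, SE 0.16). Glucocorticoid target genes, which the adrenal stress hormone induces, had 7 of 16 higher (43.8%) and 0 lower, with a median of 0.48. As each library was left out 6 to 8 were higher. *Cdkn1a*, the cell cycle inhibitor p21, had 29.8, 24.7 and 31.1 FPKM in β3-/- lungs and 19.3, 17.4 and 19.7 FPKM in WT lungs (log2 fold change 0.59, SE 0.11), and *Ddit4*, an inhibitor of mTORC1, had 65.2, 53.6 and 52.4 FPKM in β3-/- lungs and 26.2, 21.5 and 41.5 FPKM in WT lungs (log2 fold change 0.99, SE 0.24). For *Ddit4* WT 3 was the highest WT lung.

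Among myeloid lists, genes of interstitial macrophages and monocytes had 4 of 16 higher (25.0%) and 0 lower with an unadjusted p under 0.05. Dendritic cell genes had 3 of 14 higher (21.4%) and 0 lower, and alveolar macrophage genes 0 of 16 higher and 1 lower (6.25%). The shares over all members were 4.01% higher and 7.79% lower. The count for interstitial macrophages was 1 without WT 1 or WT 2 and after rescaling to TPM, and 2 without WT 3, and without β3-/- 3 there were 7 lower alveolar macrophage genes. *C1qb*, a complement subunit that macrophages make, had 34.6, 35.8 and 56.9 FPKM in β3-/- lungs and 29.8, 29.3 and 29.4 FPKM in WT lungs (log2 fold change 0.49, SE 0.19), with β3-/- 3 the highest. The dendritic cell count was 5 without WT 2, and 2 without β3-/- 1, β3-/- 2, WT 1 or WT 3 and after rescaling to TPM. Of 15 neutrophil genes 3 were higher, or 5 without β3-/- 1, and 1 lower. *Camp*, the cathelicidin of neutrophil granules, had 2.05, 0.97 and 3.23 FPKM in β3-/- lungs and 0.517, 0.198 and 0.362 FPKM in WT lungs (log2 fold change 2.16, SE 0.48), whereas *Cxcr2*, the chemokine receptor of mature neutrophils, had 3.05, 7.06 and 5.04 FPKM in β3-/- lungs and 8.44, 7.46 and 8.54 FPKM in WT lungs (log2 fold change -0.76, SE 0.28).

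Lists of structural lung cells were counted in the same way. None of 13 alveolar type 1 genes, 15 airway secretory genes or 13 smooth muscle and pericyte genes had an unadjusted p under 0.05. Of 15 alveolar type 2 genes 1 was higher (6.67%) and 1 lower (6.67%), beside 4.01% and 7.79% of all members. Without WT 2, 5 airway secretory genes were lower, with a median of -0.98, and this median was 0.55 without WT 3. Without WT 1, 2 alveolar type 1 genes were lower. Of the smooth muscle and pericyte genes 1 was higher without β3-/- 2, and 1 was lower without WT 3. Higher alveolar type 2 genes were 3 without WT 2. Of 8 lymphatic endothelial genes 2 were higher (25.0%) and 0 lower, and of 16 arterial, venous and general endothelial genes 2 were higher (12.5%) and 0 lower. Of 12 capillary endothelial genes 1 was higher (8.33%) and 2 were lower (16.7%). The general endothelial count was 4 without WT 2 and 0 without β3-/- 1, WT 1 or WT 3, and the lymphatic count was 1 without β3-/- 1 or β3-/- 2. Fibroblasts had 0 of 14 genes higher and 1 lower (7.14%), or 5 lower without WT 2. *Cxcl15*, a chemokine of lung epithelium, had 412, 507 and 464 FPKM in β3-/- lungs and 262, 384 and 356 FPKM in WT lungs (log2 fold change 0.48, SE 0.17). *Fabp5*, a fatty acid carrier, had 81.3, 79.6 and 71 FPKM in β3-/- lungs and 94.1, 117 and 96.6 FPKM in WT lungs (log2 fold change -0.40, SE 0.11). A p above the threshold with 3 mice against 3 does not show that these cells were alike. Of 7 mesothelial genes tested, which mark the lining of the lung surface, 4 were higher (57.1%), or 2 without WT 2. Their median was 1.69 within the high *Ubb* libraries and 0.14 within the low ones. *Upk3b*, one of these, had 9.22, 12.3 and 24.8 FPKM in β3-/- lungs and 7.09, 4.62 and 8.39 FPKM in WT lungs (log2 fold change 1.11, SE 0.39), with β3-/- 3 far above the rest. Heart muscle genes summed to 94.7, 262 and 547 FPKM in β3-/- lungs 1, 2 and 3 and to 128, 86.3 and 532 FPKM in WT lungs 1, 2 and 3. Skeletal muscle genes summed to 483 FPKM in β3-/- 3 and to 4.24 to 10.5 FPKM in the other 5 lungs. The part of such tissue in any result was not tested.

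The partners of β3 were counted likewise. Of 18 integrin α chains 4 were higher and 0 lower with an unadjusted p under 0.05 (22.2%, beside 4.01% of all members), *Itga2b*, *Itgal*, *Itgam* and *Itga9*, and this count was 2 without β3-/- 3, WT 1 or WT 3 and after rescaling to TPM. Among 8 β chains other than β3, 2 were higher, *Itgb2* and *Itgb7* (25.0%), a count that was 0 without β3-/- 2 or WT 3 and after rescaling to TPM, and 1 with any other library left out. *Itgal* and *Itgb2* encode the chains of the leukocyte integrin LFA-1. *Itgal* had 22.5, 25.6 and 22.2 FPKM in β3-/- lungs and 17.6, 17.9 and 18.4 FPKM in WT lungs (log2 fold change 0.37, SE 0.08), and *Itgb2* had 49, 58.3 and 67.9 FPKM in β3-/- lungs and 49, 44.7 and 42.8 FPKM in WT lungs (log2 fold change 0.35, SE 0.13). None of 25 adhesion and signaling partners had an unadjusted p under 0.05. Of 18 matrix ligands tested 1 was higher, *Spp1*, which encodes osteopontin, with 116, 87.1 and 89.3 FPKM in β3-/- lungs and 56.4, 68.4 and 50.9 FPKM in WT lungs (log2 fold change 0.73, SE 0.15). Another 3 were lower, *Ccn2*, *Postn* and *Tnc*, so 5.56% of these ligands were higher and 16.7% lower, beside 4.01% and 7.79% of all members. *Ccn2*, a matrix protein that TGF-β induces, had 92.8, 101 and 103 FPKM in β3-/- lungs and 143, 177 and 123 FPKM in WT lungs (log2 fold change -0.56, SE 0.14). Of 23 collagen chains 0 were higher and 4 lower (17.4%), and 19 had a log2 fold change below 0. The lower count was 2 without β3-/- 1 and 9 after rescaling to TPM. *Col5a2*, a chain of fibrillar collagen, had 8.34, 9.75 and 10.5 FPKM in β3-/- lungs and 14.3, 11.9 and 12.7 FPKM in WT lungs (log2 fold change -0.44, SE 0.12). Of 18 genes of TGF-β ligands, receptors and latency proteins 5 were higher (27.8%) and 0 lower, among them *Tgfb3*, a ligand (0.30, SE 0.08), and *Smad7*, an inhibitor that TGF-β induces (0.37, SE 0.11). Without β3-/- 3 or WT 2, and after rescaling to TPM, that count was 3.

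Lower values lay in other families. The members with the smallest p among decreases had adjusted p of 0.063 to 0.10, and none passed. *Ints6l*, a relative of an Integrator subunit, had 17.6, 15.8 and 14.9 FPKM in β3-/- lungs and 24.2, 24.7 and 27.4 FPKM in WT lungs (log2 fold change -0.66, SE 0.09). *Utrn*, which encodes utrophin, a relative of dystrophin, had 21.3, 18.9 and 19 FPKM in β3-/- lungs and 27.6, 29.6 and 31.2 FPKM in WT lungs (log2 fold change -0.58, SE 0.08). *Purg*, a nucleic acid binding protein, had 1.67, 2.36 and 2.28 FPKM in β3-/- lungs and 5.19, 5.71 and 4.43 FPKM in WT lungs (log2 fold change -1.25, SE 0.18). The rule that named these genes took only those with all β3-/- lungs below all WT lungs, so that is no added result. The same rule named *Ogt*, the enzyme that adds O-linked GlcNAc to proteins (-0.58, SE 0.09). It also named *Srsf1*, a splicing factor (-0.47, SE 0.08), and *Rbm5*, a regulator of splicing (-0.47, SE 0.08). The zinc finger genes *Zfp597* (-0.78, SE 0.12), *Zfp715* (-0.68, SE 0.11) and *Zfp760* (-0.84, SE 0.14) were of the same group, as were *Otud4*, a deubiquitinase (-0.48, SE 0.07), and *Nck1*, an adapter of actin signaling (-0.64, SE 0.11). The others by this rule were *Rgs11* (-0.62, SE 0.10), *Ubp1* (-0.49, SE 0.08) and *Scn3b* (-0.76, SE 0.13).

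Zinc finger genes were then counted by symbol, a family chosen after the values were seen. Of 377 tested genes whose symbol starts with Zfp, 105 were lower and 4 higher with an unadjusted p under 0.05, or 27.9% lower beside 7.79% of all members, and 315 had a log2 fold change below 0. In 154 of the 377 all β3-/- lungs were below all WT lungs, where 12.8% of members were. The median was -0.28, and it was -0.35 after rescaling to TPM and -0.24 with median-of-ratios scaling. The count of lower genes was 59 without WT 1 and 61 without β3-/- 3. Of other families counted by symbol, also chosen after the values were seen, Zbtb had 11 of 41 lower and 0 higher, Klhl 10 of 34 lower and 1 higher, Rbm 7 of 39 lower and 0 higher, and Srsf 5 of 10 lower and 1 higher. As each library was left out, 4 to 7 Zbtb genes were lower. The lower Srsf genes were 3 without β3-/- 2, and the lower Rbm genes were 13 after rescaling to TPM. *Clk1*, a kinase that phosphorylates SR splicing factors, had 75.7, 64 and 55.3 FPKM in β3-/- lungs and 139.7, 136 and 96.2 FPKM in WT lungs (log2 fold change -0.92, SE 0.18). Of 78 ribosomal protein genes 0 were higher and 2 lower, though 7 were higher without WT 2 (median 0.12) and 3 lower without WT 3 (median -0.07), with a median of 0.05 that was -0.02 after rescaling to TPM or with quantile normalization.

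**Figure D5:**
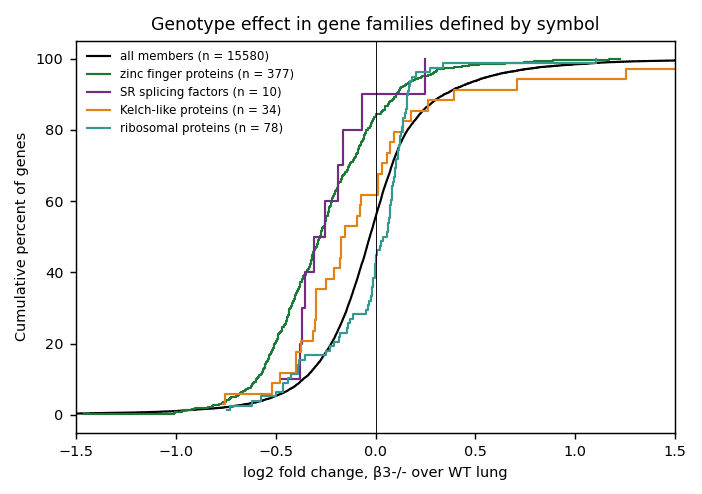
Cumulative percent of tested genes by log2 fold change of β3-/- over WT lung, for all members and for families defined by how their symbol starts. The curve of the 377 zinc finger genes lies to the left, with a median of -0.28, and that of the 78 ribosomal protein genes has a median of 0.05, which is -0.02 after rescaling to TPM or with quantile normalization.

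The balance of higher and lower genes depended on the scaling. Of members with an unadjusted p under 0.05, 34.0% were higher in β3-/- lungs, and this was 16.0% after rescaling to TPM (395 higher and 2081 lower) and 49.9% with median-of-ratios scaling (912 higher and 917 lower). The median log2 fold change was -0.10 after rescaling to TPM and 0.01 with median-of-ratios scaling. The shares also differed by exonic length. In the fifth of members with the shortest exonic length 6.79% were higher and 4.93% lower, and in the fifth with the longest 1.73% were higher and 10.4% lower. Zinc finger genes had a median exonic length of 6260 bases, beside 5893 bases over members, and a median level of 3.18 FPKM, beside 7.85 FPKM. The part of length in the lower values was not tested.

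*Nnt*, which encodes a mitochondrial transhydrogenase that is mutated in some C57BL/6 substrains, had 12.2, 7.55 and 8.37 FPKM in β3-/- lungs and 16.4, 16.2 and 19.2 FPKM in WT lungs (log2 fold change -0.90, SE 0.18, adjusted p = 0.14). The substrain is not given in the sources used here and cannot be told apart from genotype. Of 21 circadian genes 6 were higher (28.6%) and 5 lower (23.8%) with an unadjusted p under 0.05, beside 4.01% and 7.79% of all members. The repressor *Per2* had 14.6, 12.9 and 13.5 FPKM in β3-/- lungs and 16.6, 16.7 and 20.4 FPKM in WT lungs (log2 fold change -0.38, SE 0.11), and *Nfil3*, a clock output factor, had 9.26, 5.74 and 5.07 FPKM in β3-/- lungs and 4.22, 3.05 and 3.21 FPKM in WT lungs (log2 fold change 0.88, SE 0.25). The count of higher circadian genes was 1 without β3-/- 3, 2 without WT 1, after rescaling to TPM or with the *Ubb* group as a term, and 3 without β3-/- 1, and that of lower ones was 3 without β3-/- 2, β3-/- 3, WT 1 or WT 3. The hour at which tissue was taken is not given in the sources used here.

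Digestive enzymes of the pancreas, a list chosen after the values were seen, were low in every lung. Of 15, all tested, 10 were lower (66.7%, beside 7.79% of all members) and 0 higher with an unadjusted p under 0.05. All 15 were lower without WT 3. *Ctrb1*, a chymotrypsinogen, had 0.762, 0.409 and 0.548 FPKM in β3-/- lungs and 7.72, 9.99 and 1.76 FPKM in WT lungs (adjusted p = 0.15), and *Pnlip*, the pancreatic lipase, had 0.155, 0 and 0.114 FPKM in β3-/- lungs and 1.76, 3.38 and 0.723 FPKM in WT lungs. WT 3 was the lowest WT lung for both genes. The list summed to 2.29 to 5.45 FPKM in β3-/- lungs and to 10.8 to 40.6 FPKM in WT lungs.

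Genes around a targeted locus can keep the strain of the stem cells used for targeting. Of 162 tested members within 5 Mb of *Itgb3* on chromosome 11, 7 were higher and 10 lower with an unadjusted p under 0.05 (4.32% and 6.17%), with a median of -0.03, and none passed after adjustment. These shares lay near those of all members. On the X chromosome 4.7% of 511 tested members were higher and 9.59% lower, whereas 5 of 8 genes that escape X inactivation were higher (62.5%) and 0 lower, with a median of 0.32. That count was 3 without β3-/- 2 or after rescaling to TPM. *Eif2s3x*, a translation initiation factor subunit with a Y-linked partner, had 25.8, 28.7 and 30.9 FPKM in β3-/- lungs and 17.7, 19.2 and 19.4 FPKM in WT lungs (log2 fold change 0.60, SE 0.09), and *Kdm6a*, a histone demethylase that also has one, had 14.2, 11.7 and 12.4 FPKM in β3-/- lungs and 9.01, 7.88 and 8.0 FPKM in WT lungs (log2 fold change 0.62, SE 0.11).

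In spleens of the same mice, 23 of 30 members that were named for their p or call in lung and tested in both tissues had the same sign. Of the 30, 7 passed an adjusted p of 0.05 in spleen, where 9.82% of members did. The share with the same sign over all members was not counted. The same mice gave both tissues, so 23 of 30 is not an independent repeat. *Alas2* had 706, 359 and 529 FPKM in β3-/- spleens and 136, 29.4 and 73.5 FPKM in WT spleens (log2 fold change 2.94, SE 0.52). *Ppbp* had 285, 198 and 851 FPKM in β3-/- spleens and 111, 74.8 and 63.2 FPKM in WT spleens (2.17, SE 0.50), and *Tigit* had 7.91, 9.32 and 5.95 FPKM in β3-/- spleens and 3.88, 5.1 and 3.92 FPKM in WT spleens (0.82, SE 0.20). These 3 were among the 7, as was *Itgb3* (-1.31, SE 0.13, adjusted p = 0.0048). The lung effect differed from the spleen effect by the interaction term in 3 of the 30 genes, and in 0.409% of 15893 members, or in 1.46% with the mouse as a block. The 30 were named for their lung values, which enter that term, so the choice itself favors a higher share among them. *Cd3d* had a log2 fold change of -0.53 in spleen (SE 0.15), opposite in sign to lung.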

How the data were processed

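RNA of lung and spleen from 3 β3-/- and 3 WT mice was sequenced on an Illumina NovaSeq after an mRNA kit named in the labels, whose RNA purification (RNeasy) differs from that in the study's methods (TRIzol). By the study's methods and the submitters' processing notes, the authors used Trimmomatic for trimming, HISAT2 for alignment to the mouse build GRCm39 and featureCounts for counting (versions are not given in the sources used here), and they deposited FPKM values per gene for each library, by a tool not given in the sources used here. No counts were used here, so limma took the place of the authors' DESeq2. The 6 lung libraries were fitted with limma 3.58.1 (R 4.3.3, trend) on log2(FPKM + 0.1), which understates the change of low genes, keeping genes at 0.1 FPKM or more in 3 libraries, with Benjamini-Hochberg adjustment over all 15869 genes. Lung and spleen were compared with an interaction term over 12 libraries. Gene lists are described by counts and medians, with no set test. Named genes were *Itgb3*, the called members, the 15 smallest p in each direction among well-named genes of at least 1 FPKM whose genotypes did not overlap, and up to 4 genes per list. Members and lists were chosen with earlier results of these data known. Coordinates are GRCm39. Nothing in the labels names separate cultures or litters, so p-values measure the spread between these samples. On simulated data the fit called 19, 39, 49 and 49 of 50 genes given a log2 change of 1, 1.5, 2 and 3, and 7 of 15669 unchanged genes. There noise was independent between genes, with no shared split of the libraries, and the changed genes lay above 1 FPKM in WT lungs. These counts therefore do not give the power in the real libraries. An exact permutation test of 3 against 3 cannot go below 0.1. Alternatives were pseudocounts, filters, scalings, weights, a replicate block, the *Ubb* group and leaving out each library. Results for a few genes are not reported here, though list counts include them.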

Additional observations from a re-analysis of the deposited data

Results flagged for a closer look

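For 3 of the 30 named members tested in both tissues, the effect of genotype in lung differed from that in spleen by the interaction term of limma after adjustment over all genes. The 30 were named for their p or call in lung, a choice that favors a difference from spleen. *Jchain* had 2474, 2418 and 2628 FPKM in β3-/- spleens and 679.5, 667 and 771 FPKM in WT spleens, a log2 fold change of 1.83 in spleen and 5.07 in lung, and the lung effect minus the spleen effect was 3.235 (SE 0.52, adjusted p = 0.035), so both tissues had the same direction. *Adamtsl2* was higher in β3-/- lungs and had 7.27, 6.63 and 7.99 FPKM in β3-/- spleens and 10.3, 9.3 and 9.13 FPKM in WT spleens, with a difference of 1.092 (SE 0.15, adjusted p = 0.021). *Utrn* was lower in β3-/- lungs and had 9.68, 7.56 and 9.93 FPKM in β3-/- spleens and 7.16, 7.21 and 7.65 FPKM in WT spleens, with a difference of -0.867 (SE 0.15, adjusted p = 0.045). *Adamtsl2* and *Utrn* passed an adjusted p of 0.05 in neither tissue alone.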

How the results depend on the processing

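The 7 members called higher were 2 with no filter, 17 with array weights, 0 with members fitted alone, 4 with the *Ubb* group as a term, 27 with all 12 libraries in the fit, 16 at an adjusted p under 0.1, and 0 (without WT 1) to 9 as each library was left out. Against 0 called lower, 1 was with a pseudocount of 1, 2 with no filter, 1 after rescaling to TPM, 4 without the trend, 5 with array weights, 4 with all 12 libraries, 5 at an adjusted p under 0.1, and 0 to 1 as each library was left out. The 104 higher at an unadjusted p under 0.05 and over the fold threshold were 30 with a pseudocount of 1, 55 with a filter at 1 FPKM, and 109 to 180 (without WT 3) as each library was left out. The 71 lower were 12, 17, 111 after rescaling to TPM, 109 with array weights, and 66 to 112 (without WT 2). The genes named for their p or call kept the sign of their log2 fold change under these alternatives, but the median of all members, -0.03, was 0.01 with median-of-ratios scaling, and several small list medians also changed sign with the scaling or with a library left out. With the replicate number as a block, 1 member was called higher, but correlations of same-numbered lungs were 0.199, 0.033 and -0.041, so the numbers were not taken as pairs. With the mouse as a replicate block, 5 named genes differed between tissues in place of 3. Why these values moved was not tested. Depth in reads is unknown, so the precision of low FPKM cannot be given.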
